A study of Rattus norvegicus with 11 samples.

Results

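The genes described here encode the proteins of the mitochondrial ribosome, the particle that translates the few messages of mitochondrial DNA. They were taken by symbol, as all rows of the authors' deposited table named Mrpl or Mrps with a number after it. Of 17257 genes in the table, 69 met this rule, 41 of the large subunit and 28 of the small subunit by their symbols. A mean above 0 was listed for 67 of them, and Mrpl36 and Mrpl53 of the large subunit were listed at 0. So were 3911 of the 17257 genes, and whether a listed 0 reflects absent expression was not tested.

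Ventricular myocytes, the contractile cells of the heart ventricles, came from wild-type Sprague Dawley rats aged 3 to 4 months, 6 males and 5 females. They were isolated on a Langendorff apparatus, which perfuses the excised heart, then plated for 45 minutes without treatment and frozen. Sex is the only difference between the groups that the labels name, and the comparison asks how it relates to gene expression. The table gives mean normalized counts, that is, gene counts divided by a size factor for each library and averaged within a sex. Replicate spread is not shown by such means, so the authors' adjusted p-value served as the test, with a threshold of 0.05.

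Mitochondrial ribosomes make the core subunits of the respiratory chain, on which the beating heart depends for ATP. Their own proteins are encoded in the nucleus, translated in the cytosol and imported, while their ribosomal RNAs come from mitochondrial DNA. Part of these proteins have counterparts in bacterial ribosomes, and the rest are found in mitochondria. Inherited defects of MRPL3 and MRPL44 cause cardiomyopathy in people. The promoters of nuclear genes for mitochondrial proteins often bind NRF1, ETS factors such as GABPA, and YY1.

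Promoters are shown for the 5 members that passed the threshold and for Mrpl12 and Mrpl3, with the highest means of the large subunit, and Mrps18b, with the highest of the small one, which did not. Each window runs from 250 bases before to 50 bases after the start site and is read 5′ to 3′ on the gene's strand, from RefSeq on the build GRCr8, whereas the counts were made on rn6. Capitals mark exact matches on either strand to 3 motifs, GCATGCGC of the NRF1 core, CCGGAAG of ETS factors and AAGATGGCG of YY1. NRF1 core matches on opposite strands can overlap, which gives a run of 10 capitals.
Mrpl18, chr1:50384702-50385001, + strand: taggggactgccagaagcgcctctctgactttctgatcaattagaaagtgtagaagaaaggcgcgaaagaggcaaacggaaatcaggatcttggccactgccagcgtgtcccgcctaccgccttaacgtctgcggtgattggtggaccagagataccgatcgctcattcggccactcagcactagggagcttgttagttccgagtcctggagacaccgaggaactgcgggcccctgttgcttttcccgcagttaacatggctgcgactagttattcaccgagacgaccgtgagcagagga
Mrpl32, chr17:55260401-55260700, + strand: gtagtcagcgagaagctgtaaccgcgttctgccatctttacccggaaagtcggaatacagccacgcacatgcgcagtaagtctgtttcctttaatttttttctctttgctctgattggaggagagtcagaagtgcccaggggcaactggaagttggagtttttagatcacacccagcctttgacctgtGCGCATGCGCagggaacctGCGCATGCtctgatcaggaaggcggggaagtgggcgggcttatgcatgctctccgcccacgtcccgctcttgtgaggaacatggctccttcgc
Mrpl51, chr4:159677738-159678037, + strand: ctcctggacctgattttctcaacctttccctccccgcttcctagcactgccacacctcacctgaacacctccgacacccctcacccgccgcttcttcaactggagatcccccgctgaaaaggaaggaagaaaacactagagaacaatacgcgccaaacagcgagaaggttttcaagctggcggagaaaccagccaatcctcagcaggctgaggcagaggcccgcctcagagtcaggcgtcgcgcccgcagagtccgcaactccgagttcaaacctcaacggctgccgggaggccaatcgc
Mrps9, chr9:52605428-52605727, + strand: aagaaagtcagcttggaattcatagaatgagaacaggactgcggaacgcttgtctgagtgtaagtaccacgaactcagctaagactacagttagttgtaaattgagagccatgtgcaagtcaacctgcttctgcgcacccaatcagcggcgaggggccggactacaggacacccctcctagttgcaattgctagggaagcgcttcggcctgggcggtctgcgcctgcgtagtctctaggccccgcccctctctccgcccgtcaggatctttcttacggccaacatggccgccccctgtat
Mrpl4, chr8:27815521-27815820, + strand: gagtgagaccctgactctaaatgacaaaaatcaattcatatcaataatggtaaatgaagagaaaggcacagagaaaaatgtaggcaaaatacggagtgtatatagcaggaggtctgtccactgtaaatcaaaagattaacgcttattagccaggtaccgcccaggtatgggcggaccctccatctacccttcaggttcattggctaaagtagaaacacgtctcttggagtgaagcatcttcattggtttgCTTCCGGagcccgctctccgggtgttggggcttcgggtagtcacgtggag
Mrpl12, chr10:106256496-106256795, + strand: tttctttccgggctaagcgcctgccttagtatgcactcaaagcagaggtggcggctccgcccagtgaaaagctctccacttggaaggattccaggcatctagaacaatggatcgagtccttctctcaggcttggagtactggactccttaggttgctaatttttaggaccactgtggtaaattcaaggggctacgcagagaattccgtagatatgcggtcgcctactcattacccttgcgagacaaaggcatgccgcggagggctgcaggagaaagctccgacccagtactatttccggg
Mrpl3, chr8:114548720-114549019, + strand: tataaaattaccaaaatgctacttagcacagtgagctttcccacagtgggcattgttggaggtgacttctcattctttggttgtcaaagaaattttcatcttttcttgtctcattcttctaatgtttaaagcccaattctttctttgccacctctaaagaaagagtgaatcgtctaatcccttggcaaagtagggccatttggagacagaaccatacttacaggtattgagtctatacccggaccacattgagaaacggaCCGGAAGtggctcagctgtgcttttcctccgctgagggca
Mrps18b, chr20:2842756-2843055, + strand: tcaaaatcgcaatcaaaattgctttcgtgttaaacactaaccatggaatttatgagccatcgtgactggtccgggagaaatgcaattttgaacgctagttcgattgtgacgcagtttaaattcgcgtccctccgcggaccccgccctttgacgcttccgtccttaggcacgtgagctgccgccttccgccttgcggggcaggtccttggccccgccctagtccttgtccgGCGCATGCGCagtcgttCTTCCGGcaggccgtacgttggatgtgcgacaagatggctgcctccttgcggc

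Among these windows, Mrpl32 held 3 NRF1 core matches, 2 of them overlapping on opposite strands. Mrps18b held 2 NRF1 core matches that overlap in the same way and 1 ETS match. Mrpl4 and Mrpl3 held 1 ETS match each. The windows of Mrpl18, Mrpl51, Mrps9 and Mrpl12 held none of these letter strings. Over the 54 members with a promoter entry, the ETS motif was present in 18 (33.3%), the YY1 motif in 9 (16.7%) and the NRF1 core in 5 (9.26%). Over all 27457 promoters the shares were 9.22%, 1.93% and 2.66%. Over the 7028 promoters of genes with a mean of at least 50 they were 18.9%, 4.45% and 5.58%. At least 1 of the 3 motifs was found in 27 of the 54 member promoters. By subunit, ETS matches lay in 10 of 33 large subunit promoters and 8 of 21 small subunit promoters. Factor binding was not measured in these cells.

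As a check of the tissue, all 7 myocyte markers were present, with male means from 62239 for Actn2 to 831771 for Myh6 in the authors' deposited table. They summed to 2483320 in males and 3093363 in females, and 2 of them, Myh6 and Ryr2, were called higher in females, 0 lower. Myh6 held the largest share of this sum (831771 against 1330868), and 1 of the 7, Tnnt2, had a lower mean in females. Summed markers of fibroblasts were 17938 in males and 8892 in females, with 2 of 6 genes called lower, 0 called higher and Col1a2 listed at 0. There Col3a1 held the largest share (10722 against 3915), and all 5 measured genes had a lower mean in females. The sums were 15668 and 16400 for endothelial markers, of which Vwf was called higher, 946 and 763 for macrophages and leukocytes, and 5378 and 5549 for smooth muscle and pericytes. In the last list 5 of 6 genes had a higher mean in females and Rgs5, which holds the largest share of the sum, a lower one (2647 against 1924 in the authors' deposited table), with none called. The part of these cells in the differences below was not tested. In bulk samples, fewer cells of a type and less RNA per cell cannot be told apart. Members took 0.234% of all mean counts in males and 0.246% in females, but 0.549% and 0.5005% of those in rows with a gene symbol, as rows with an Ensembl identifier alone took 57.5% and 50.7%.

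Few members passed the test, and most had means close together in both sexes. By the authors' deposited table and the threshold of 0.05, 1 member was higher and 4 were lower in females, 5 of 67 in all (7.46%). Over all 13346 genes with a mean above 0 the share called was 14.5%, made up of 6.71% higher and 7.76% lower in females. Among genes with a mean of at least 50, which 66 members reached, it was 20.5%, with 9.69% higher and 10.8% lower. Among the 6297 genes whose mean lay between those of Mrpl43 and Mrpl12, which bound 65 members, 23.6% were called, against 5 of 65 members. At an unadjusted p under 0.05 the members numbered 12, 4 with a higher and 8 with a lower mean in females, and the share over all genes was 27.3%.

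The sizes of the differences were small as well. The authors' deposited table gives a log2 ratio of the female to the male mean, and its median was -0.08 over the 67 members and -0.014 over all genes. It was positive in 25 members and negative in 42. Another scaling adds 1 constant to every gene, so that the difference of the members' median from that of all genes was -0.07 under each. The signs of single members depend on it, with 45 positive and 22 negative under scaling to the group totals of all rows, where the median of all genes is 0.14, and 20 positive and 47 negative under scaling to the totals of rows with a symbol, where it is -0.08. Between the quartiles, the members with a mean of at least 50 spanned 0.27 on the log2 scale, from -0.18 to 0.09, against 0.58 for all such genes. A log2 ratio within 0.25 of zero was listed for 47 of these 66 members (71.2%) and for 43.5% of all genes with such a mean. For genes with means between those of Mrpl43 and Mrpl12 this share was 45.4%, and it was 72.3% for the 65 members among them.

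**Figure D1:**
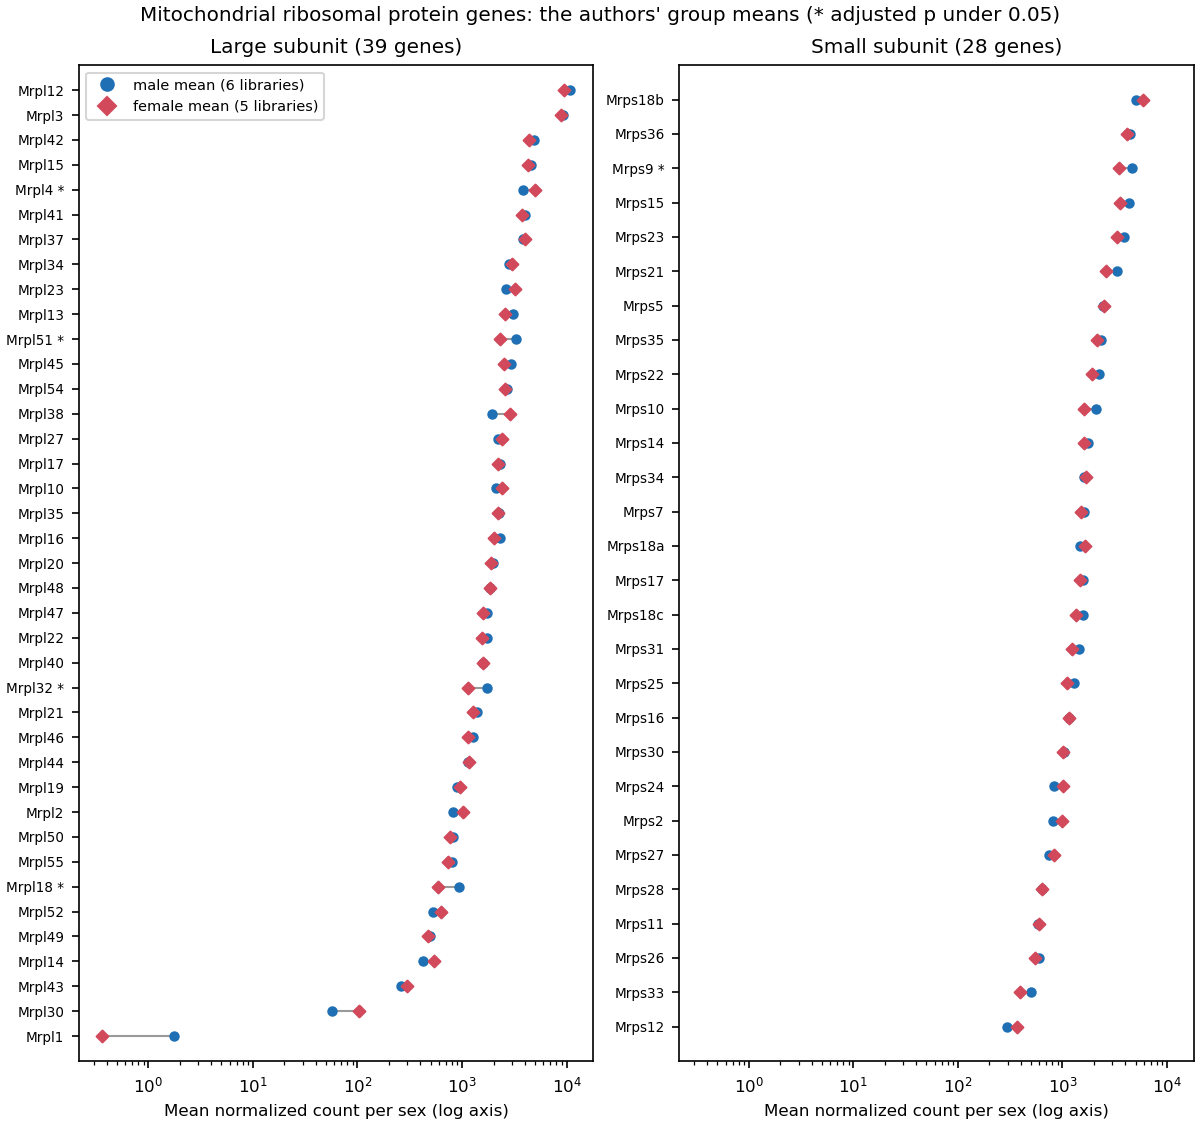
Mean normalized count of each measured member in males (circles) and females (diamonds) on a log axis, with the large subunit on the left and the small subunit on the right; asterisks mark an adjusted p under 0.05. The 2 means lie close together for most of the 67 genes, and Mrpl1 and Mrpl30 stand apart at the bottom.

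In the large subunit, Mrpl18, Mrpl32 and Mrpl51 were lower in females. Mrpl18 encodes a protein of the central protuberance. The authors' deposited table lists a mean of 926 normalized counts for Mrpl18 in males against 585 in females (log2 ratio -0.66, adjusted p = 0.00425). Mrpl32, whose product must be cleaved by a protease of the inner membrane before it joins the particle, averaged 1742 and 1148 in the authors' deposited table. With a log2 ratio of -0.60 it had the smallest adjusted p of any member in the authors' deposited table, 0.00225. RefSeq lists pseudogene symbols for 23 members, 1 of them for Mrpl32 but none for the other 4 called members, so part of such reads could belong elsewhere. Mrpl51, a protein without a bacterial counterpart, averaged 3258 and 2296 (log2 ratio -0.51, adjusted p = 0.00653) by the authors' deposited table. These 3 were thus 36.8%, 34.1% and 29.5% lower in females by the fold column of the authors' deposited table.

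Mrpl4, which encodes a protein lining the exit tunnel of the nascent chain, was the only member called higher in females. Its means were 3853 in males and 5043 in females, a fold of 1.31 (adjusted p = 0.0317) according to the authors' deposited table. Mrpl38, a protein of the central protuberance, missed the threshold with a larger fold. The authors' deposited table gives Mrpl38 means of 1918 and 2865, a fold of 1.49 and adjusted p = 0.0592. Among members with a mean of at least 50, large positive log2 ratios in the authors' deposited table also belonged to Mrpl14 (0.34, adjusted p = 0.165) and Mrpl30 (0.85, adjusted p = 0.497). Mrpl30 is described by library further on.

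In the small subunit, Mrps9 alone was called. It encodes a protein of the head of this subunit. The authors' deposited table lists Mrps9 means of 4626 in males against 3453 in females (log2 ratio -0.42, adjusted p = 0.0209). Mrps10, another protein of the head, and Mrps21 lay just outside the threshold. The authors' deposited table has log2 ratios of -0.38 (adjusted p = 0.0520) and -0.36 (adjusted p = 0.0827) for this pair. Mrps12, which sits in the decoding centre, averaged 295 and 369 with adjusted p = 0.253 by the authors' deposited table. With p-values adjusted only over the 9116 genes that averaged 50 or more, Mrps10 (adjusted p = 0.0368) and Mrpl38 (adjusted p = 0.0420) joined the 5 called members, 7 of 66, where 24% of those genes were called.

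Medians of the sex difference lay close together in the large and the small subunit, and a difference between the subunits was not tested. The median log2 ratio was -0.08 over 39 large subunit genes, of which 4 were called, and -0.10 over 28 small subunit genes, of which 1 was called. The shares called were 10.3% and 3.57%, against 14.5% of all genes with a mean above 0. Of genes with a mean of at least 50, 20.5% were called. By their sums, large subunit genes held 92393 normalized counts in males and 89341 in females in the authors' deposited table, a female to male ratio of 0.967. For small subunit genes the authors' deposited table gives 54266 and 50237, a ratio of 0.926. The large over small ratio of these sums was 1.70 in males and 1.78 in females, 1.04 times higher in females. These sums of group means carry no test. Some symbols, such as Mrpl11 and Mrps6, have no row, so the sums do not cover every protein of either subunit. Symbols and structure do not match everywhere, because the products of Mrps18a and Mrps30 reside in the large subunit and that of Mrps36 has been assigned to the oxoglutarate dehydrogenase complex. With the first 2 moved and Mrps36 left out, an alternative chosen after seeing the data, the ratio was 2.12 in females and stood 1.06 times above that in males.

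Gene by gene, means were spread over a wide range, and they are not divided by transcript length, so their order is not one of abundance. The highest means of the large subunit belonged to Mrpl12, the stalk protein that recruits translation factors, with 10764 normalized counts in males and 9400 in females, and to Mrpl3, with 9287 and 8901, in the authors' deposited table. Mrpl12 made up 11.6% of the large subunit sum in males and 10.5% in females, and Mrpl3 made up 10.1% and 9.96%. Mrpl42, Mrpl15 and Mrpl4 followed with overall means of 4642, 4468 and 4394, as the authors' deposited table has them. In the small subunit the highest overall means were those of Mrps18b (5414), Mrps36 (4275), Mrps9 (4093), Mrps15 (3997) and Mrps23 (3634) in the authors' deposited table. Apart from Mrps9 and Mrpl4 none of these 10 genes was called, and the adjusted p of the others ran from 0.143 for Mrps15 to 0.837 for Mrpl3 in the authors' deposited table.

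At the low end, the small subunit had no gene under an overall mean of 329, the value of Mrps12, followed by Mrps33 with 453 and Mrps26 with 574 in the authors' deposited table. The large subunit reached much lower, with overall means of 1.12 for Mrpl1, 78.0 for Mrpl30 and 276 for Mrpl43 by the authors' deposited table. Of the 3 paralogues that descend from 1 bacterial protein, Mrps18b had a mean of 5038 in males and 5866 in females, Mrps18a 1478 and 1627, and Mrps18c 1555 and 1343, in the authors' deposited table. None of the 3 passed the threshold (adjusted p = 0.312, 0.570 and 0.384 in the authors' deposited table).

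A rough division by origin was made after the values were seen, and it goes by symbol number alone. Large subunit proteins numbered up to 36 and small subunit proteins up to 21 were taken to have a bacterial counterpart. Proteins with higher numbers can have one as well, so some stand in the wrong group. Of 37 measured genes with the lower numbers, 1 was called higher (Mrpl4) and 3 lower (Mrpl18, Mrpl32 and Mrps9) in females (10.8%). Of 30 genes with higher numbers, Mrpl51 alone was called (3.33%). Over all genes with a mean above 0 the share called was 14.5%, and over those with a mean of at least 50 it was 20.5%. The quartiles of the log2 ratio lay 0.33 apart in the former group and 0.17 apart in the latter, counting members with a mean of at least 50. Both medians were close to zero, at -0.07 and -0.09. Whether the groups differ was not tested.

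**Figure D2:**
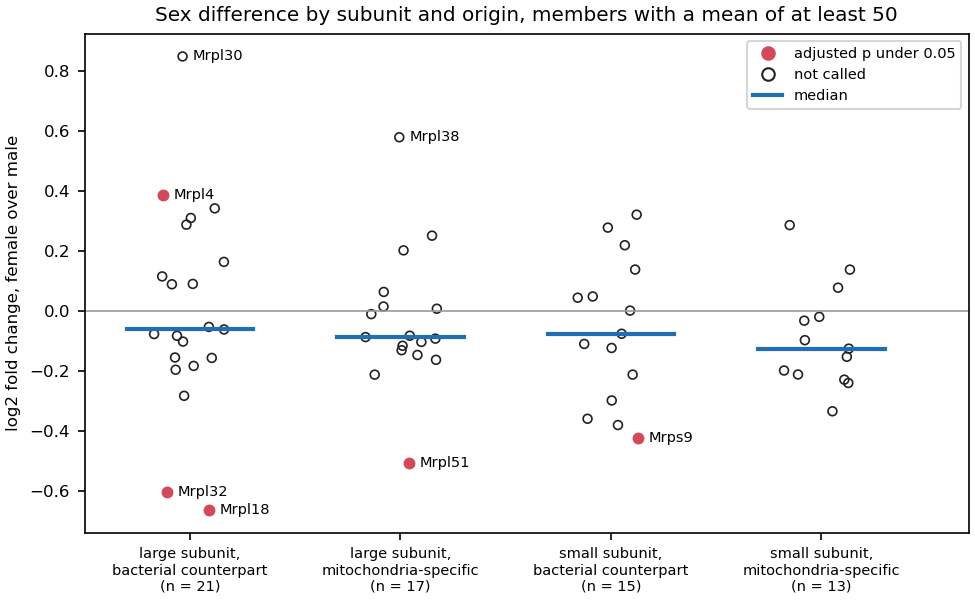
Log2 fold change, female over male, of the 66 members with a mean of at least 50, by subunit and by symbol number, used as a rough stand-in for a bacterial counterpart; filled points have an adjusted p under 0.05 and bars are medians. The 4 medians lie close to 0, and the points spread more widely in both groups labelled as having a bacterial counterpart.

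Reads per library could be worked out from the digits of the means for Mrpl30 and Mrpl1 alone, whose means are low enough. Their libraries are lettered from the largest size factor to the smallest in each sex, since replicate numbers are not known. In males, Mrpl30 had 25.6, 29.0, 54.3, 89.8, 76.9 and 67.8 normalized reads in libraries a to f. In females it had 35.2, 204.6, 20.1, 46.3 and 208.9 in libraries a to e. Female libraries b and e thus stood above every male library, while the other 3 lay within or below the male range, and the sexes overlapped.

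Males averaged 57.2 ± 26.0 normalized reads of Mrpl30 (SD, n = 6), and females averaged 103 ± 95.2 (SD, n = 5). The higher female mean in the table therefore rested on 2 of 5 libraries. An exact permutation test gave p = 0.346 (two-sided, smallest possible p = 0.0022). Limma on log2 of normalized reads plus 1 took in 1600 genes whose reads, 0 included, were worked out for all libraries, with a mean of at least 10. The difference was 0.39 with a standard error of 0.63 and an adjusted p of 0.835. That fit called 0 of 1600 genes, which is 0%, and 237 had an unadjusted p under 0.05 (14.8%). Without female library b the difference was -0.0059, and without female library e it was -0.013.

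The spread of Mrpl30 among females was wide for its level. Its coefficient of variation, the SD over the mean, was 0.924 in females, whereas the median was 0.311 over 917 genes with a female mean from 50 to 110, of which 6 had a higher value. In males it was 0.454 against a median of 0.399 over 701 genes with a mean from 30 to 60. RefSeq lists 9 pseudogenes of Mrpl30, the most of any member, so reads of near-identical copies could be counted in or lost from this row. Their part in the spread was not tested. Mitd1, whose start site lies head to head with that of Mrpl30, had 81.9, 60.6, 43.1, 47.3 and 57.6 normalized reads in female libraries a to e. Libraries b and e did not stand apart for Mitd1.

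**Figure D3:**
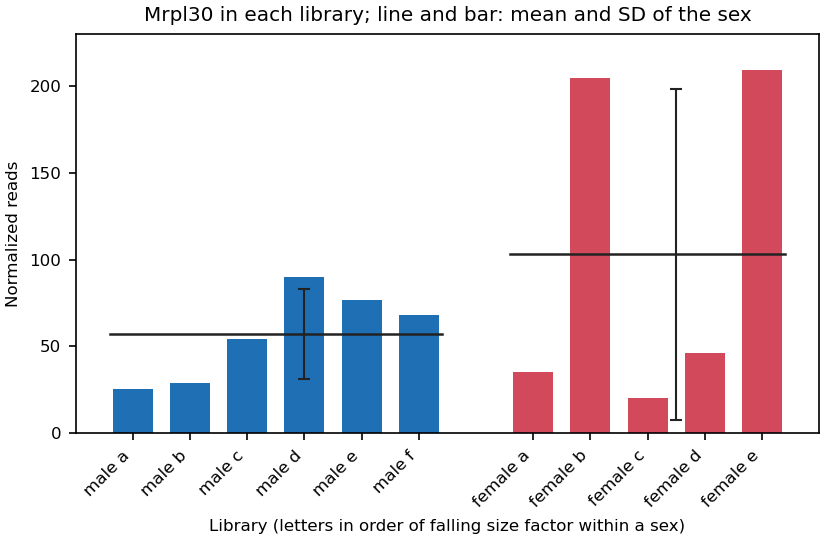
Normalized reads of Mrpl30 in each of 6 male and 5 female libraries, with a line at the mean of each sex and an error bar of 1 SD. Female libraries b and e reach 204.6 and 208.9, and the other 3 female libraries lie between 20.1 and 46.3.

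Mrpl1, which encodes the protein of the stalk on the other side of the large subunit, was close to absent from the counts. It had 7 and 5 reads in male libraries a and b, 0 in the other 4 male libraries, 2 in female library b and 0 in the other 4 female libraries. Its mean normalized counts were 1.75 in males and 0.362 in females. From reads pooled within each sex and divided by the summed size factors, a different measure, the male to female ratio was 5.29. Its exact 95% counting interval ran from 1.18 to 48.7, which covers counting error only. By library, an exact permutation test gave p = 0.455 (two-sided). RefSeq lists 2 pseudogenes of Mrpl1.

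Head-to-head neighbours were looked up because several members share a promoter region with another gene. By RefSeq on GRCr8, 18 of the 54 members with a promoter entry had a gene on the opposite strand whose start site lay within 1000 bases upstream. Mrpl18 neighbours Tcp1, a subunit of a cytosolic chaperonin. Where Mrpl18 was lower in females, the authors' deposited table lists Tcp1 means of 11950 and 12314 (log2 ratio 0.04, adjusted p = 0.949). Mrpl32 neighbours the proteasome gene Psma2, whose log2 ratio was -0.23 (adjusted p = 0.287) in the authors' deposited table. Mrpl46 and Mrps11, one of each subunit, are neighbours of each other, and the authors' deposited table lists their log2 ratios as -0.16 and 0.05.

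Of 15 such neighbours with a p-value, 2 were called, both higher in females. The share called was 14.5% of all genes and 20.5% of those with a mean of at least 50. The called neighbours were Klc4, a kinesin light chain gene beside Mrpl2, with a log2 ratio of 0.46 (adjusted p = 0.0201), and Gga3, a vesicle adaptor gene beside Mrps7, with 0.63 (adjusted p = 0.00945), both from the authors' deposited table. For Mrpl2 and Mrps7 themselves the authors' deposited table gives log2 ratios of 0.31 (adjusted p = 0.227) and -0.08 (adjusted p = 0.851).

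Another 6 genes for proteins of the mitochondrial ribosome have other symbols, and 0 of the 6 were called, also at an unadjusted p under 0.05. Their log2 ratios ran from -0.22 to 0.18, and Dap3, a small subunit protein that binds GTP, averaged 1337 and 1321 in the authors' deposited table. For comparison, 8 of 81 genes of cytosolic ribosomal proteins were called higher and 1 lower in females, 11.1% against 7.46% of members. The share was 14.5% over all genes and 20.5% over those with a mean of at least 50, which 77 of the 81 reached. The median log2 ratio of that family was 0.06.

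Genes that act around the mitochondrial ribosome were called in both directions. For the shares by list given below, 14.5% of all genes with a mean above 0 were called. Among genes with a mean of at least 50, which every measured gene of these lists reached, it was 20.5%. Those genes were likewise called in both directions, 9.69% higher and 10.8% lower in females. The lists are short, and whether any list differs from these shares was not tested. Of 12 measured translation factors, 2 were lower in females (16.7%) and none was higher. Mtif2, the initiation factor that joins the initiator transfer RNA to the ribosome, averaged 1640 and 921 (log2 ratio -0.83, adjusted p = 0.0197) in the authors' deposited table. Guf1, an elongation factor that can move the ribosome backwards, averaged 3328 and 2128 (log2 ratio -0.65, adjusted p = 0.00815) in the authors' deposited table. Tufm, which delivers transfer RNAs to the ribosome, averaged 9729 and 10442 (adjusted p = 0.766) in the authors' deposited table.

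Ribosome assembly and modification of its RNA had 23 measured genes, of which 3 were called higher and 4 lower, 7 in all. That is 30.4%, against 20.5% of genes with a mean of at least 50. The lower ones were Ngrn (-0.59) and Fastkd2 (-0.56), both needed for the large ribosomal RNA, and the assembly factors listed as Mterfd2 (-0.50) and Mterfd1 (-0.49), with their log2 ratios from the authors' deposited table. The higher ones were Rpusd3 (0.56), a pseudouridine synthase, and the RNA helicases Ddx28 (0.54) and Dhx30 (0.37), again with log2 ratios from the authors' deposited table. The median of this list was 0.09. Nsun4, a ribosomal RNA methyltransferase, was listed at 0.

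Of 14 genes for processing and stability of mitochondrial RNA, Pnpt1, an RNA-degrading enzyme, was lower (-0.61) and Tbrg4, a stabilizer of messenger RNAs, higher (0.42), by their log2 ratios in the authors' deposited table. These 2 made up 14.3% of the list, against 20.5% of genes with a mean of at least 50. Lrpprc, which holds messenger RNAs for translation, averaged 9236 and 9499 (adjusted p = 0.947) in the authors' deposited table. Among 13 genes of transcription and the nucleoid, the RNA polymerase gene Polrmt was higher, at 566 against 838 normalized counts (log2 ratio 0.57, adjusted p = 0.0365) in the authors' deposited table. Its partners Tfb2m (log2 ratio -0.55, adjusted p = 0.0210) and Tfam (-0.42, adjusted p = 0.0421) were lower by the authors' deposited table. The share called in this list was 23.1%. Of 17 mitochondrial aminoacyl-tRNA synthetase genes and relatives, Sars2 and Vars2 were higher, with log2 ratios of 0.58 each (adjusted p = 0.00704 and 0.00491 in the authors' deposited table), and none was lower. The share called there was 11.8%.

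Regulators of nuclear genes for mitochondrial proteins numbered 9, of which 3 were called higher and 1 lower. That is 44.4% of a short list, against 20.5% of genes with a mean of at least 50. Gabpa, an ETS factor, averaged 1739 in males and 1016 in females (log2 ratio -0.78, adjusted p = 0.00496) in the authors' deposited table. The coactivator genes Ppargc1b and Pprc1 and the gene Myc were higher, with folds of 1.46, 1.39 and 1.35 in the authors' deposited table. Nrf1 and Yy1 had log2 ratios of -0.06 (adjusted p = 0.940) and -0.11 (adjusted p = 0.672) in the authors' deposited table.

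**Figure D4:**
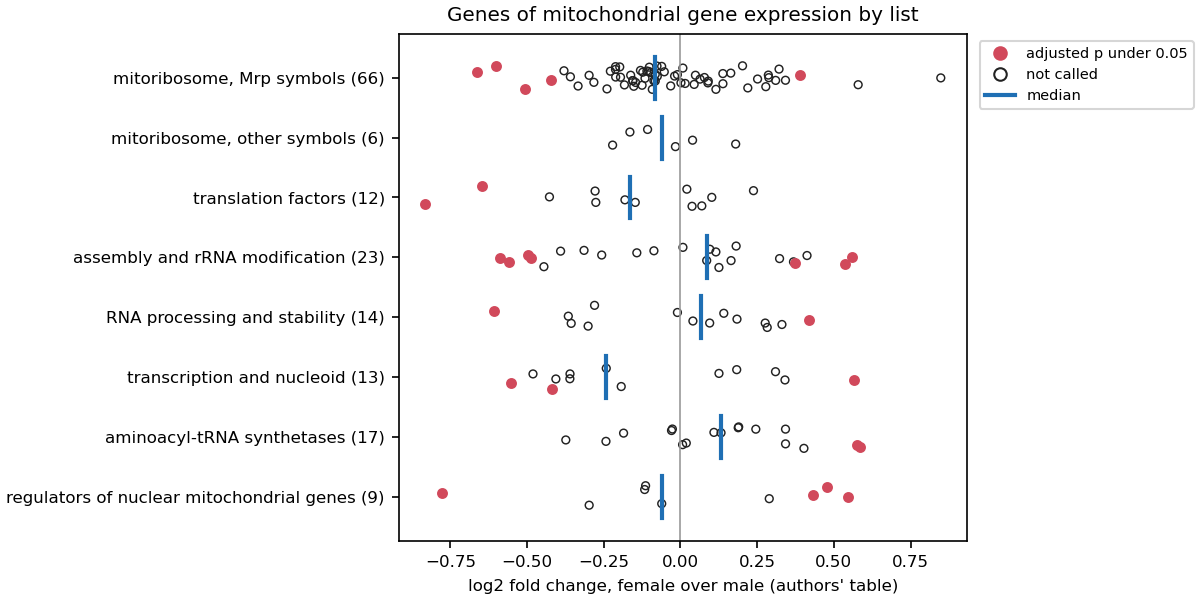
Log2 fold change, female over male, of genes of mitochondrial gene expression by list, with the number of genes in brackets; filled points have an adjusted p under 0.05 and bars are medians. Called points lie on both sides of 0 in the lists for assembly, RNA processing, transcription and regulators, while most of the 66 ribosomal protein genes lie close to 0.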

How the data were processed

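Per the labels' protocols, libraries were made from 650 ng of RNA (integrity number 9 or more), depleted of ribosomal RNA, with a stranded paired-end kit. Per the submitters' processing notes, DESeq, HTSeq 0.6.1, TopHat2 2.0.12, Trimmomatic 0.32 and FastQC were used with the build rn6. Their settings, the annotation and the use of strand are not given in the sources used here. Per the file headers, the authors deposited for each gene a mean normalized signal (counts over size factors) for all libraries and for 2 groups, a fold change as a linear ratio, its log2 value, a p-value and an adjusted p-value. Groups A and B were read as male and female because the overall mean equals 6 parts of A and 5 of B over 11 in 13346 of 13346 genes with a mean above 0, within a relative 1e-09, and in 0 with the parts exchanged.

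No new test across genes was made on group means. The digits of the means gave size factors (0.811 to 1.17 in males, 0.972 to 1.14 in females) and each library's reads, for male means up to 60 and female means up to 110, matched to a relative 6e-15. Exactly 1 solution existed for 3949 of 3949 male means searched and for 4633 of 4638 female means. Of values shifted off the grid, 3 of 565 and 1 of 663 had a solution. For the mean of Mrpl30, 21 of 100 shifted values had one in males and 1 of 100 in females. Across 4427 genes whose reads, 0 included, were worked out in both sexes, libraries held from 46516 to 66177 reads. Library totals over all genes are not known from such means. Limma 3.58.1 in R 4.3.3 was run on these reads, with a pseudocount of 1 and a mean of at least 10, and was tested on simulated data. Labels call each library a biological replicate, and Python 3.11.15 with scipy 1.17.1 gave the exact tests.

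Members, lists, motifs and alternatives were chosen with earlier results of these data known. Named were all called members, those with the 5 highest and 3 lowest means in each subunit, the 4 largest log2 ratios in each direction at a mean of at least 50, members with recovered reads, members listed at 0, and in each list the called genes with Tufm, Tfam, Polrmt, Lrpprc and Dap3. Other members, among them Mrps10, Mrps21, Mrps18a and Mrps18c, were named after their values were seen. So were other neighbours, regulators and markers, and Nsun4. Of the 69 symbols, 68 matched RefSeq. Of 105 listed pathway genes, 94 were measured.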

Additional observations from a re-analysis of the deposited data

Results flagged for a closer look

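In female libraries, Mrpl1 had 1.81 normalized reads in library b and 0 in the other 4, so that the gap between the highest library and the next took up the whole range of the group (1 against a critical value of 0.71). This rests on 2 reads. The rule is set to flag about 1 in 20 groups by chance, but that rate does not hold at so few reads. Whenever both reads fall in 1 library, the gap takes up the whole range.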

How the results depend on the processing

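At an adjusted p under 0.01, 3 members were called, 0 of them higher in females, and 5.69% of all genes. At one under 0.1 there were 8 members, with 2 higher, and 20.5% of all genes. Adjusted over genes with a mean of at least 50, 2 members were higher and 7 were called in all. Scaling to the group totals of all rows turned the median log2 ratio to 0.067 for all members, 0.067 for the large subunit and 0.046 for the small subunit, a shift that this scaling gives to every gene alike. The counts of lower members stayed within 1.5 times the reported count under all 6 alternatives tried, the other alternatives moved each median by at most 0.1, and the subunit ratio between the sexes moved by at most 10% under 4. Within a sex, the ratio of large to small was 1.22 in males and 1.26 in females by the median of means. Without the 23 members that have pseudogene symbols, chosen after seeing the data, 4 were called, 1 higher and 3 lower. With a pseudocount of 5, limma called 10 of the 1600 genes. For Mrpl30 the log2 difference ran from -0.013 to 0.82 (-0.013 without female library e, -0.0059 without female library b) when each of 11 libraries was left out, with adjusted p-values from 0.616 to 0.999, and libraries of other genes could not be left out of group means. A ratio per coding length was not run, because no table of coding lengths was used here. No paired analysis was possible because the libraries could not be tied to replicate numbers. Group means carry no depth, so the spread between libraries could be worked out only for the 2 members with reads. For the other measured members the authors' p-values are the only measure of precision.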
